A study of Homo sapiens with 6 samples.

Results

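The genes described here are CD44 with the enzymes and receptors of hyaluronan: the receptors CD44 and HMMR, the hyaluronan synthases HAS2 and HAS3, the hyaluronidases HYAL1, HYAL2 and HYAL3, and the hyaluronan-degrading protein CEMIP. They were taken by gene symbol, 8 of the 19973 genes in the expression table, and all 8 were among the 12874 genes with enough reads to be tested. RNA-seq was performed on OVCAR3, an established human ovarian cancer cell line, to find the genes that differ after knockdown of NUF2, a subunit of the NDC80 kinetochore complex. The control group, shNC, carried a control hairpin, and the shNUF2 group carried a short hairpin RNA against NUF2. The labels give the genotype as WT for shNC and as NUF2 knockdown for shNUF2. Both were stable lines selected with puromycin after plasmid transfection, and neither label names a further drug. Each group held 3 libraries, and a single hairpin against NUF2 was used, so an effect of NUF2 and an effect of this hairpin cannot be told apart. The sources used here do not say whether the libraries of a group came from separate cultures, so the p-values measure the spread between these libraries, which may be technical.

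Hyaluronan is a long, unsulfated polysaccharide of the pericellular and extracellular matrix. It is polymerised at the plasma membrane by the HAS enzymes from UDP-glucuronic acid and UDP-N-acetylglucosamine, is bound at the cell surface mainly by CD44, and is cut by hyaluronidases and by CEMIP before the fragments are broken down in lysosomes. In ovarian cancer, CD44 is best known as the receptor through which tumour cells attach to the hyaluronan coat of the peritoneal mesothelium. HMMR, also called RHAMM, is a hyaluronan-binding protein at the cell surface and a microtubule-associated protein of the mitotic spindle inside the cell.

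The hairpin is shown because it is the agent that separates the groups. Its NUF2 target and its guide strand are written 5′ to 3′, with the seed of the guide (bases 2 to 8) in capitals.
shNUF2 target: cttcttaccattcagcaattt
shNUF2 guide: aAATTGCTgaatggtaagaag
Among the coding transcripts of GENCODE release 29, NUF2 was the only gene that held the full 21-base target, and the longest run that any of the hyaluronan genes shared with it was 6 to 8 bases. The letters complementary to the seed, AGCAATT, occurred 1 time in the longest coding transcript of HMMR, 1 time in that of HAS2 and 0 times in those of the other 6 genes. The same letters were present in 20.6% of the 19669 coding genes.

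Of the 8 genes, 7 had a promoter entry in RefSeq (GRCh38.p14), running from 250 bases before to 50 bases after the transcription start, and HAS2 had none. The 30-base windows below, all on the plus strand, are shown as examples of core promoter letters in the genes that rose. Capitals mark GC boxes in CD44, 2 adjacent copies of TTTGAA, the letters of a cell cycle homology region, in HMMR, a TATA box in CEMIP and an E-box in HAS3.
CD44 chr11:35138998-35139027: acgGGGCGGgggcagaggggcCCGCCCggg
HMMR chr5:163460595-163460624: gtggggagaTTTGAATTTGAAaccggtagg
CEMIP chr15:80779328-80779357: agtaaaagtggcTATAAAagcggcctctcg
HAS3 chr16:69107462-69107491: gtgggaaagcggCACGTGggtgtggccggc
These motifs were chosen after the promoters were read, and all were searched on both strands. TATAAA was found only in CEMIP among the 7 genes (11.5% of 35116 RefSeq promoters of this length), CACGTG only in HAS3 (7.26%) and TTTGAA only in HMMR (15.2%), which also had 5 CCAAT boxes (34.6%) where the others had 0. GGGCGG, present in 45.0% of promoters, was found in each of the 7 genes except HYAL2. TGANTCA, the AP-1 letters, was found in none of the 7 and in 7.71% of all promoters. A match describes the letters and not a bound site.

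NUF2 itself was lower in every library labelled shNUF2. Its reads were 903, 1096 and 1092 in shNC and 281, 290 and 384 in shNUF2, and its level fell to 0.352 of the control (log2 fold change -1.51, SE 0.08, adjusted p = 5.9e-18 by the quasi-likelihood test of edgeR, Benjamini-Hochberg adjusted over all genes tested). The libraries held 13057534 to 16995452 counted reads. The ovarian epithelial markers KRT7, KRT8, KRT18, MUC16 and PAX8 were read in all libraries, EPCAM was low (44 to 91 reads), and WT1, with 0 to 7 reads, was at or near 0. The summed level of these 7 markers was 239 to 275 FPKM (reads scaled to gene length and library total) in shNC and 284 to 312 FPKM in shNUF2. They were listed as markers of OVCAR3, and whether their levels match that line was not tested. Among these markers, KRT7 (mean 169 FPKM in shNC and 142 in shNUF2) and KRT8 (49.5 and 99.2) made up most of the sum. MUC16 was at 1.12 FPKM in shNC and 0.651 FPKM in shNUF2. Of the 6 tested, 4 rose and 1 fell: KRT8 was a DEG higher (log2 fold change 1.04), KRT18 (0.55), PAX8 (0.64) and EPCAM (0.69) rose, MUC16 fell (-0.75, adjusted p = 3.79e-09), and KRT7 was not called (-0.22, adjusted p = 0.0811).

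Across the 8 genes, the receptor CD44, both synthases and CEMIP were higher after NUF2 knockdown by more than 2-fold, HMMR rose by less, and the hyaluronidases moved little. A differentially expressed gene (DEG) had a log2 fold change above 1 or below -1 and an unadjusted p under 0.05. By that rule 4 of the 8 were DEGs higher in shNUF2 (HAS3, HAS2, CD44 and CEMIP) and 0 were DEGs lower, against 9.41% of all tested genes higher and 4.16% lower. At an adjusted p under 0.05 and any size of change, 6 of the 8 rose (HMMR and HYAL3 in addition), 1 fell (HYAL1) and 1 was not called (HYAL2), where 33.9% of all tested genes rose and 33.9% fell. The 0 DEGs lower stand beside 2 genes with a lower level at an unadjusted p under 0.05, HYAL1 and HYAL2, and DESeq2 also gave 0 DEGs lower among the 8. By library, 5 genes had all shNUF2 values above the highest shNC value and 2 had all below the lowest, compared with 35.2% and 35.4% of tested genes. The median log2 fold change was 0.82 over the 8 genes and -0.01 over all genes tested.

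**Figure D1:**
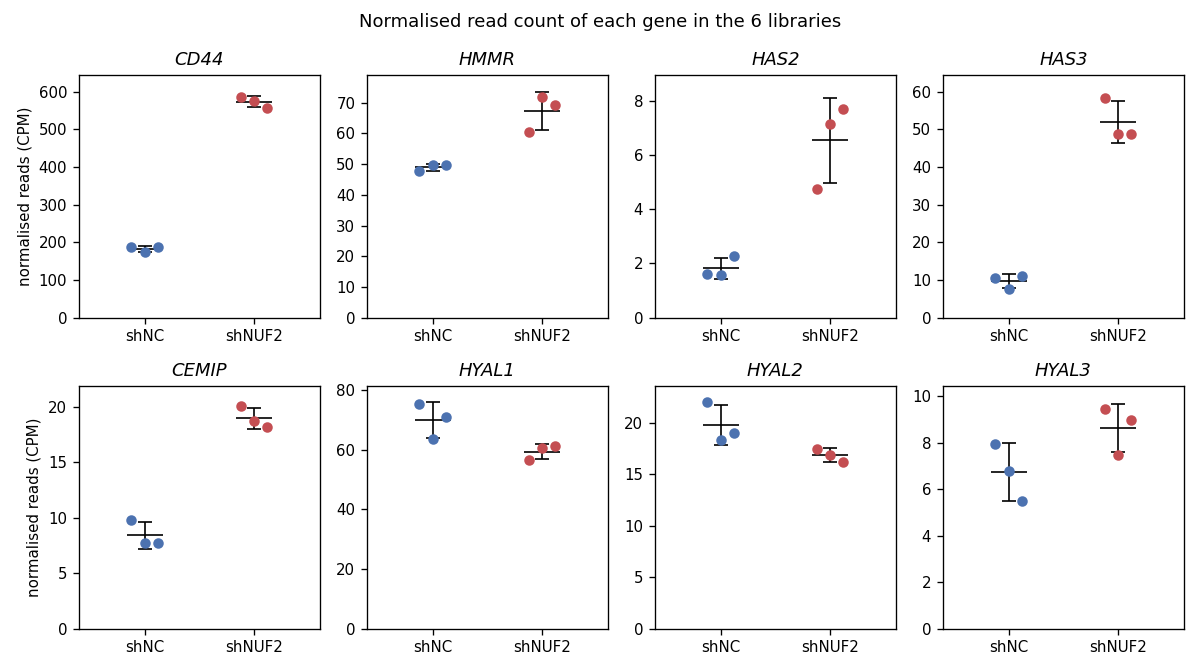
Normalised read counts (CPM, reads scaled to TMM-normalized library totals, on the vertical axis of each panel) of the 8 genes in the shNC and shNUF2 libraries. Each point is 1 library, and the black line and bar give the mean and SD of 3 libraries; CD44, HMMR, HAS2, HAS3 and CEMIP lie higher in all shNUF2 libraries, HYAL1 and HYAL2 lie lower, and the HYAL3 groups overlap.

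CD44, the main cell surface receptor of hyaluronan, was the most abundant of the 8 genes after knockdown. It lies on chromosome 11 (GRCh38, 35138882 to 35232402, plus strand, ENSG00000026508). Its normalised read counts (CPM, reads scaled by TMM to a common library total) were 188, 174 and 187 CPM in the shNC libraries and 586, 576 and 557 CPM in the shNUF2 libraries. All shNUF2 libraries were high and close to each other, and the groups did not overlap. The mean was 183 ± 7.62 CPM (SD, n = 3) in shNC and 573 ± 14.8 CPM (SD, n = 3) in shNUF2. CD44 thus rose 3.13-fold (log2 fold change 1.65, SE 0.04, adjusted p = 2.97e-26, edgeR's quasi-likelihood test), a log2 fold change above that of 95.8% of the genes tested. The reads behind these values were 2671 to 3210 per shNC library and 7486 to 8374 per shNUF2 library. In GENCODE release 29 the gene has 26 coding transcripts, from the standard form to those with variable exons, and reads counted per gene do not tell them apart. As in any bulk sample, more cells that express a gene and more RNA per cell cannot be told apart.

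Over the 6 libraries, the genes whose centred log2 level lay nearest to that of CD44 were SPOCD1, FHL2 and C3orf52. Their Euclidean distances were 0.0995, 0.112 and 0.118 on the log2 CPM scale, against a median of 2.08 over the 11775 genes compared. Their log2 fold changes were 1.62 for SPOCD1, 1.64 for FHL2 and 1.74 for C3orf52, close to the 1.65 of CD44. With 2 groups of 3 libraries, such a likeness mostly reflects the size of the group difference.

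HMMR, the RHAMM receptor and spindle protein, rose by a smaller amount. It lies on chromosome 5 (163460203 to 163491941, plus strand, ENSG00000072571). Its levels were 47.7, 49.6 and 49.8 CPM in shNC and 60.3, 71.9 and 69.3 CPM in shNUF2. All shNUF2 libraries were above all shNC libraries, and the first shNUF2 library was the lowest of its group. HMMR rose 1.37-fold, from 49.0 ± 1.14 to 67.2 ± 6.09 CPM (SD, n = 3 each; log2 fold change 0.45, SE 0.07, adjusted p = 2.94e-07 by edgeR's quasi-likelihood test), which did not reach the DEG threshold. Per length, the ratio of CD44 to HMMR was 1.47 ± 0.0842 in shNC and 3.38 ± 0.384 in shNUF2 (FPKM over FPKM, SD, n = 3).

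HAS3, the synthase isoform that carried most of the synthase reads in both groups, had the largest fold change of the 8 genes. It lies on chromosome 16 (69105653 to 69118719, plus strand, ENSG00000103044). Its levels were 10.6, 7.57 and 11.0 CPM in shNC and 58.3, 48.9 and 48.7 CPM in shNUF2. Every shNUF2 library was several times higher than any shNC library. HAS3 rose 5.34-fold, from 9.73 ± 1.88 to 52.0 ± 5.49 CPM (SD, n = 3; log2 fold change 2.42, SE 0.11, adjusted p = 1.02e-16 by edgeR's quasi-likelihood test), above 98.1% of the genes tested. Of its exonic bases, 6.90% overlap CHTF8 on the opposite strand, which itself had only 2 to 12 reads per library.

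HAS2, the other synthase measured, was the least abundant of the 8 genes and had the widest error. It lies on chromosome 8 (121612116 to 121641440, minus strand, ENSG00000170961). Its reads were 23, 25 and 39 in shNC and 64, 93 and 116 in shNUF2, or 1.62, 1.56 and 2.27 CPM and 4.75, 7.16 and 7.71 CPM. The groups did not overlap, although the lowest shNUF2 library was well below the other two. HAS2 rose 3.57-fold, from 1.82 ± 0.391 to 6.54 ± 1.58 CPM (SD, n = 3; log2 fold change 1.84, SE 0.24, adjusted p = 5.13e-08 by edgeR's quasi-likelihood test). Plus or minus 2 SE this covers log2 fold changes from 1.35 to 2.32, an interval that overlaps the 2.19 to 2.64 of HAS3 at its upper end. HAS1, the remaining synthase of the family, had 0 to 3 reads per library and was not tested.

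CEMIP, a secreted and membrane-associated protein needed for hyaluronan breakdown in several cell types, was also a DEG. It lies on chromosome 15 (80779343 to 80951776, plus strand, ENSG00000103888). Its levels were 9.78, 7.70 and 7.73 CPM in shNC and 20.03, 18.7 and 18.2 CPM in shNUF2. The groups were well separated and tight. CEMIP rose 2.27-fold, from 8.40 ± 1.19 to 19.0 ± 0.967 CPM (SD, n = 3; log2 fold change 1.18, SE 0.13, adjusted p = 5.28e-10 by edgeR's quasi-likelihood test). Its homologue CEMIP2, a transmembrane hyaluronidase, rose as well, from 610, 655 and 739 reads to 1093, 952 and 1099 reads (log2 fold change 0.84, SE 0.06, adjusted p = 1.22e-13). MESD, which shares 2.94% of the exonic bases of CEMIP on the opposite strand, had a log2 fold change of 1.00.

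**Figure D2:**
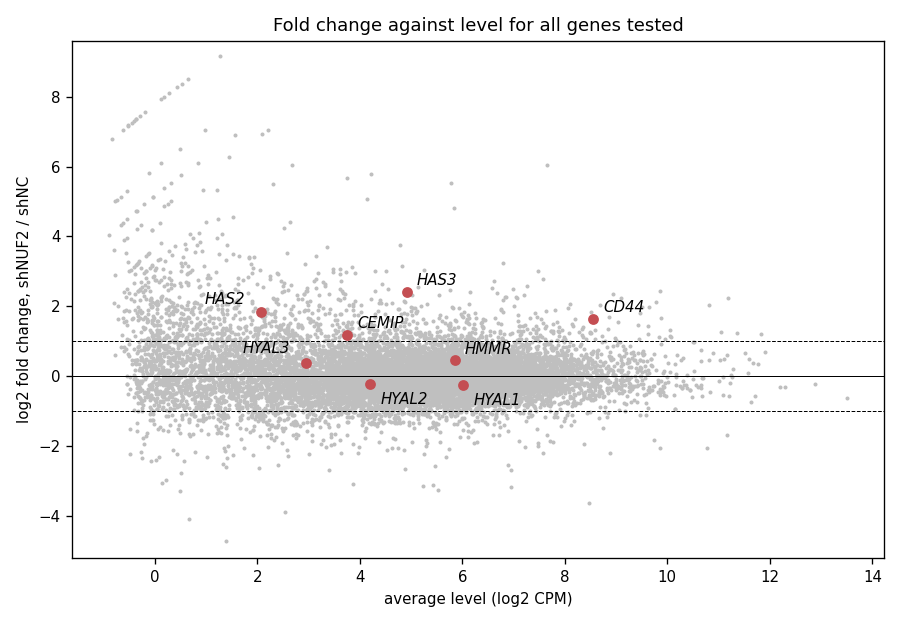
Log2 fold change of shNUF2 over shNC (vertical axis) against the average level in log2 CPM (horizontal axis, log scale) for the 12874 genes tested, each a grey point. The 8 hyaluronan genes are red and named, and dashed lines mark log2 fold changes of 1 and -1; CD44, HAS2, HAS3 and CEMIP lie above the upper line, and HMMR and the hyaluronidases lie between the lines.

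The 3 hyaluronidase genes lie side by side in 29952 bases of chromosome 3 (50292831 to 50322782, minus strand), in the order HYAL3, HYAL1 and HYAL2. None was a DEG. HYAL1, the lysosomal hyaluronidase (ENSG00000114378, 50299890 to 50312381), was at 75.3, 63.5 and 70.9 CPM in shNC and at 56.5, 60.5 and 61.0 CPM in shNUF2. All shNUF2 libraries were lower, with a narrow gap between the groups. HYAL1 fell to 0.85 of the control, from 69.9 ± 5.97 to 59.3 ± 2.50 CPM (SD, n = 3; log2 fold change -0.23, SE 0.06, adjusted p = 0.00161 by edgeR's quasi-likelihood test).

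HYAL2, the glycosylphosphatidylinositol-anchored hyaluronidase of the cell surface (ENSG00000068001, 50317790 to 50322782), was at 22.02, 18.3 and 19.0 CPM in shNC and at 17.5, 16.9 and 16.2 CPM in shNUF2. All shNUF2 libraries lay below the shNC libraries, but the gap was small. Its log2 fold change had the same size as that of HYAL1 with a larger error and was not called (-0.23, SE 0.11, adjusted p = 0.0586 by edgeR's quasi-likelihood test). HYAL2 came under the threshold without shNC library 2, with library totals or with no filter, and not with DESeq2 size factors (adjusted p = 0.0685) or a filter of 1 CPM in every library (0.0864). Without shNC library 1 its log2 fold change was -0.15 (adjusted p = 0.261). TUSC2 shares 11.2% of the exonic bases of HYAL2 on the same strand, and its own log2 fold change was -0.06 (adjusted p = 0.477).

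HYAL3, whose enzymatic activity is weak or undetected in most assays (ENSG00000186792, 50292831 to 50299405), was at 7.95, 6.76 and 5.46 CPM in shNC and at 9.42, 7.46 and 8.98 CPM in shNUF2. The groups overlapped, since the second shNUF2 library was below the first shNC library. HYAL3 passed the threshold narrowly (1.29-fold, log2 fold change 0.37, SE 0.17, adjusted p = 0.0494 by edgeR's quasi-likelihood test), and it no longer passed when shNC library 2 or 3 or shNUF2 library 1 or 3 was left out. NAA80 shares 12.2% of the exonic bases of HYAL3 on the same strand and had a log2 fold change of 0.50 (adjusted p = 2.94e-04). IFRD2 shares 2.12% on the same strand and moved the other way (-0.61, adjusted p = 7.72e-12). How reads in shared exons were assigned was not tested.

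Per length, the order of the 8 genes changed between the groups. In shNC the mean levels in FPKM ran from HYAL1 (22.9) and CD44 (18.5) through HMMR (12.6), HYAL2 (4.53), HYAL3 (3.46), HAS3 (1.89) and CEMIP (1.12) to HAS2 (0.434), and no gene overlapped its neighbour in this order over the 3 libraries. In shNUF2 CD44 was highest (56.6 FPKM), followed by HYAL1 (19.0) and HMMR (16.9), which overlapped. HAS3 (9.85 FPKM) stood above HYAL3 (4.32) and HYAL2 (3.77), which also overlapped, and CEMIP (2.45) and HAS2 (1.52) remained last. HAS3 thus moved above HYAL2 and HYAL3 in level, and CD44 above HYAL1.

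Summed by role, the synthases HAS2 and HAS3 were at 2.44, 1.86 and 2.68 FPKM in shNC and at 12.05, 11.0 and 11.1 FPKM in shNUF2. The 3 hyaluronidases together were at 33.7, 28.7 and 30.4 FPKM in shNC and at 26.4, 27.1 and 27.7 FPKM in shNUF2. Neither sum overlapped between the groups: the synthase mean was 4.89 times as high in shNUF2, and the hyaluronidase mean was 0.875 of the control. The gap between the hyaluronidase sums was narrow. FPKM is not scaled by TMM, whose factors were 1.01 to 1.02 in shNC and 0.978 to 0.996 in shNUF2. The ratio of synthase to hyaluronidase transcripts was 0.0751 ± 0.0119 in shNC and 0.421 ± 0.0307 in shNUF2 (SD, n = 3). Over the 20 possible splits of 6 libraries, an exact two-sided permutation test of such a sum cannot go below p = 0.10, so no test is given. HAS3 made up 81.3 ± 2.58% of the synthase sum in shNC and 86.5 ± 3.88% in shNUF2, with overlapping ranges, and HYAL1 made up 74.2 ± 1.96% and 70.1 ± 2.22% of the hyaluronidase sum. With CEMIP and CEMIP2 added to the hyaluronidases, a sum chosen after the values were seen, the sum was at 39.6, 34.2 and 36.1 FPKM in shNC and at 37.6, 37.4 and 37.8 FPKM in shNUF2. The groups then overlapped (36.7 ± 2.76 and 37.6 ± 0.206 FPKM, SD, n = 3). This sum leaves out the lysosomal exoglycosidases, which together were at 66.3 to 69.5 FPKM in shNC and at 56.2 to 59.4 FPKM in shNUF2. The ratio of synthases to this wider sum was 0.0633 ± 0.0100 in shNC and 0.303 ± 0.0158 in shNUF2. These are transcript levels and not enzyme activities.

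**Figure D3:**
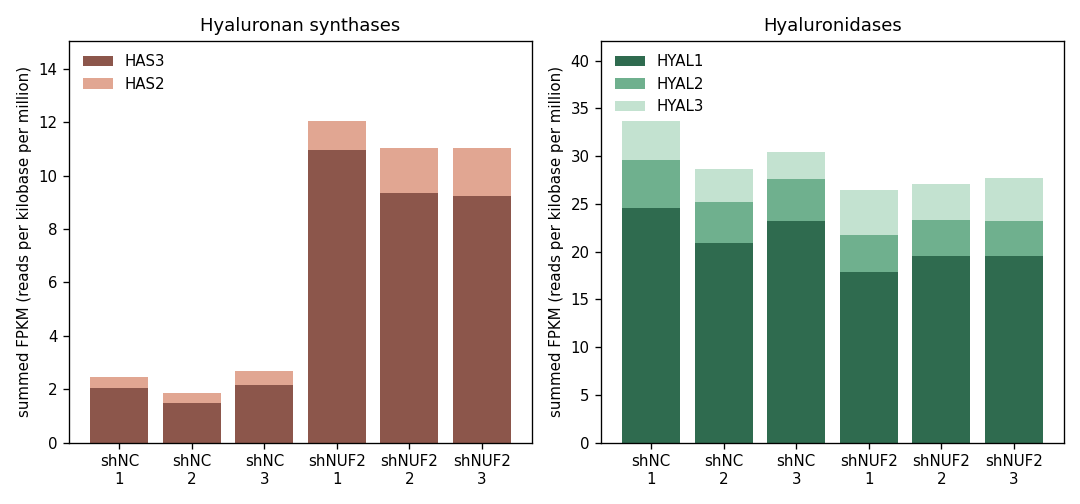
Summed level in FPKM (vertical axes, from 0) of the hyaluronan synthases HAS3 and HAS2 (left) and of the hyaluronidases HYAL1, HYAL2 and HYAL3 (right) in each of the 6 libraries, 1 stacked bar per library. The synthase sum is 1.86 to 2.68 FPKM in shNC and 11.0 to 12.05 FPKM in shNUF2, while the hyaluronidase sum is 28.7 to 33.7 and 26.4 to 27.7 FPKM.

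The surrounding pathway was read from 12 lists of 79 other genes, of which 59 were tested. Of these 59, 8 were DEGs higher and 1 was a DEG lower, and 29 rose and 16 fell at an adjusted p under 0.05. Over all genes tested, 9.41% were DEGs higher and 4.16% lower, and 33.9% rose and 33.9% fell, so each list below is read against these shares. When 1 CPM was required in every library, 6 of the pathway genes were DEGs higher and 0 lower. For the precursors of hyaluronan, 4 of the 7 enzymes that make the nucleotide sugars rose, 2 fell and 1 was not called, with a median log2 fold change of 0.37 (-0.01 over all genes tested). UAP1, which forms UDP-N-acetylglucosamine, had the highest log2 fold change (0.77, adjusted p = 2.52e-17), and GNPNAT1, an acetyltransferase earlier in the same route, the lowest (-0.55). UGDH, which makes UDP-glucuronic acid, was not called (-0.07, adjusted p = 0.225), though it passed as lower when the first shNC library was left out (-0.14). Of the lysosomal enzymes that finish hyaluronan breakdown, HEXA rose (log2 fold change 0.44) and the glucuronidase GUSB fell (-0.56). HEXA, with 77 to 157 reads, was no longer called without shNC library 2 or shNUF2 library 3.

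Of the 16 proteins that bind hyaluronan in the matrix, only 5 were tested, and 3 of them rose and 1 fell (33.9% and 33.9% of all genes tested). PTX3, a pentraxin that cross-links hyaluronan, was read 6, 7 and 5 times in shNC and 49, 49 and 44 times in shNUF2. TNFAIP6, also called TSG-6, which transfers heavy chains onto hyaluronan, was read 53, 61 and 61 times and then 228, 198 and 201 times. Both were far higher in all shNUF2 libraries, and TNFAIP6 was a DEG (log2 fold change 2.03, SE 0.16, adjusted p = 1.88e-13). PTX3 was also counted as a DEG (3.15, SE 0.38), but it met the read filter only through the shNUF2 libraries, where it is high, and was not tested when 1 CPM was required in every library, so its call gives no independent support. BCAN, the proteoglycan brevican, rose (0.93, adjusted p = 0.00274), HAPLN2, a link protein, was not called (-0.41, adjusted p = 0.316), and AMBP, the precursor of bikunin, fell from 25 to 32 reads to 10 to 12 reads (-1.13, SE 0.37, adjusted p = 0.00804). Without the first shNUF2 library, 4 of the list were DEGs higher. The other 11 had at most 15 reads in any library, with HAPLN1 and HAPLN4 at 0 throughout. ITIH1, ITIH2 and ITIH3, which encode heavy chains that TNFAIP6 transfers, were among these 11.

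Among the other hyaluronan receptors, LYVE1, STAB2 and LAYN had at most 9 reads in any library. STAB1, a scavenger receptor, had 6, 11 and 11 reads in shNC and 20, 13 and 19 in shNUF2 (log2 fold change 1.08, SE 0.43). Its reads too met the filter only through the shNUF2 libraries, so its call gives no independent support, and it was no longer called without shNC library 1 or 3 or shNUF2 library 1 or 3. Of CD44, LYVE1, STAB1, STAB2 and LAYN, only CD44 had more than 20 reads in any library.

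The proteins that link the tail of CD44 to actin were divided. MSN (moesin, log2 fold change 1.55) and EZR (ezrin, 1.24) were DEGs higher, RDX (radixin) fell (-0.50), and NF2 (merlin) rose slightly (0.22, adjusted p = 0.018), a call that was lost without the first shNC, the first shNUF2 or the second shNUF2 library. MSN was read 4093, 4252 and 4402 times in shNC and 10528, 10465 and 11709 times in shNUF2, with the groups far apart. Among the proteases that cut CD44, the membrane-bound MMP14 was a DEG higher (1.14, SE 0.09, adjusted p = 7.49e-13) and ADAM17 rose (0.30). ADAM10 (-0.02) was not called. Of the regulators of the variable CD44 exons, KHDRBS1 (Sam68) rose (0.45) and ESRP2 fell (-0.59), and ESRP1 had at most 2 reads. The transcript forms of CD44 themselves were not measured.

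**Figure D4:**
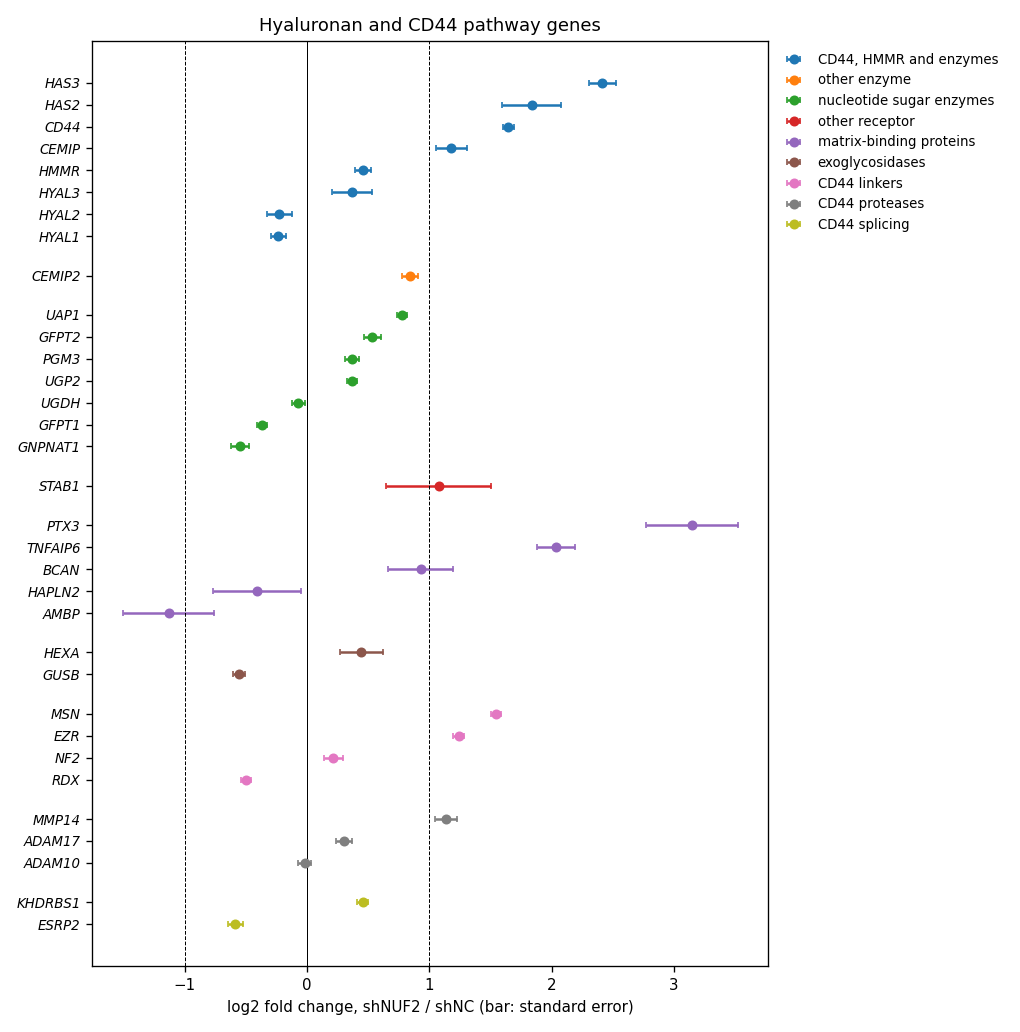
Log2 fold change of shNUF2 over shNC (horizontal axis, bars are standard errors) for the 8 hyaluronan genes and tested genes of the other hyaluronan and CD44 lists, coloured by list and sorted within each. Dashed lines mark log2 fold changes of 1 and -1; PTX3 (3.15) and HAS3 (2.42) lie farthest to the right and AMBP (-1.13) farthest to the left.

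HMMR was set beside the genes of its other role, in mitosis. None of its 5 spindle partners was a DEG: 1 rose (TPX2, log2 fold change 0.24), 2 fell (DYNLL1 -0.42 and the kinesin KIF11 -0.15) and AURKA (0.05) and FAM83D (-0.05) were not called. KIF11 was no longer called without the second shNC or the first shNUF2 library. Among 12 genes of G2 and M phase, 5 rose and 4 fell, near the share over all genes tested, with a median of 0.05 and a range from -0.67 (TOP2A) to 0.45 (CDC20). Only 3 rose without the first shNC library. The log2 fold change of HMMR, 0.45, was above that of all 5 partners and, by a margin smaller than its SE, above that of all 12 G2 and M phase genes. Differences between genes were not tested. The genes nearest to HMMR over the 6 libraries were CLTA, KPNA3 and PALMD, at distances of 0.0700, 0.0719 and 0.0810 (median of all genes 0.773), and none of these is on either mitotic list.

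**Figure D5:**
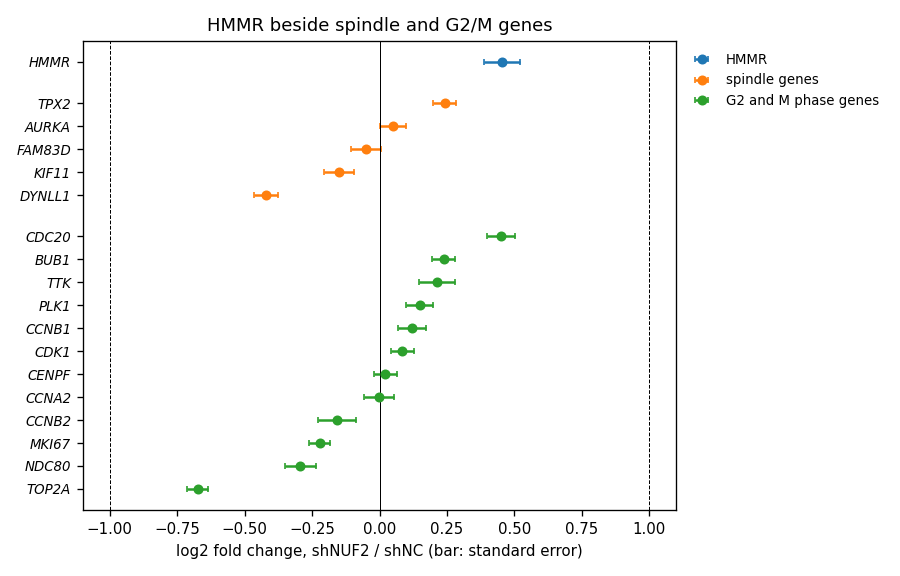
Log2 fold change of shNUF2 over shNC (horizontal axis, bars are standard errors) for HMMR, 5 spindle genes and 12 G2 and M phase genes, sorted within each group. HMMR (0.45) and CDC20 (0.45) lie at the upper end and TOP2A (-0.67) at the lower end.

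The other glycosaminoglycans gave a comparison outside hyaluronan. Of the syndecans, proteoglycans of the cell surface, SDC4 was a DEG higher (log2 fold change 1.49, adjusted p = 1.5e-22), while SDC1 (-0.03) and SDC3 (0.01) were not called. SDC2 was read 0 times in all shNC libraries and 8, 5 and 13 times in shNUF2, and was not tested. Of 12 tested enzymes that build sulfated glycosaminoglycans, 5 rose and 4 fell, also near the share over all genes, with a median of 0.06. They ranged from CSGALNACT2 (1.09, adjusted p = 1.92e-14), which starts chondroitin chains, to B3GALT6 (-0.71, adjusted p = 3.37e-06), which builds the linker to the core protein.

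Markers of other cell types were read beside these results. Fibroblast markers, 3 of 7 tested, summed to 9.44 to 10.1 FPKM in shNC and 7.36 to 8.24 FPKM in shNUF2, with DCN higher (log2 fold change 1.22), COL1A1 lower (-0.39) and COL1A2, LUM and THY1 at 0 to 2 reads. COL3A1, not tested, was read 1, 0 and 2 times in shNC and 15, 15 and 5 times in shNUF2. Leukocyte markers, 1 of 5 tested, summed to 0.476 to 0.883 FPKM and 1.38 to 2.08 FPKM, with PTPRC at 0 to 11 reads and CD3E at 0 to 1. Endothelial markers, 2 of 3 tested, summed to 0.226 to 0.439 FPKM and 0.462 to 0.679 FPKM. CDH5 was read 1, 1 and 4 times in shNC and 15, 19 and 27 times in shNUF2, the libraries through which it met the read filter. PECAM1, the endothelial marker with the most reads (24 to 49 per library), was not called (log2 fold change -0.02, adjusted p = 0.966). The leukocyte and endothelial sums were thus higher in shNUF2, as CD44 and the synthases were, and their part in the result was not tested.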

How the data were processed

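RNA from OVCAR3 cells with shNC or shNUF2 (3 libraries each) was made into libraries with a stranded mRNA kit and sequenced on a NovaSeq instrument by a company for the authors. Read counts per gene, not normalized, were deposited by the authors, together with FPKM values, which equal the count divided by gene length and total counted reads. The submitters' processing notes name cutadapt, HISAT, HTSeq and GRCh38.p13, and the strand setting of the counting is not given in the sources used here, so reads from overlapping genes on opposite strands may not be separable. The libraries differed within groups by more than counting noise (chi-square per degree of freedom 2.65 to 4.37), so none was treated as a repeat.

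Counts were normalized by TMM and tested with edgeR 4.0.16 in R 4.3.3 (filterByExpr, glmQLFit, glmQLFTest), with Benjamini-Hochberg adjustment over the 12874 genes tested and no covariate. CPM values are counts scaled to TMM-normalized library totals. The biological coefficient of variation was 4.93%. Standard errors were derived from the log2 fold change and the F statistic. "Rose" and "fell" mean an adjusted p under 0.05. The alternatives were DESeq2 1.42.0, its size factors, library totals, other filters, limma 3.58.1 on log2(FPKM + 1) and log2(FPKM + 0.1), a replicate block, and each library left out in turn. All 8 hyaluronan genes are named. From each list the tested genes with the highest and lowest log2 fold change, every DEG, and in lists of up to 5 genes any member are named, and the 3 nearest profiles are given for CD44 and HMMR. DEGs followed the thresholds of the study's methods, read on the log2 scale. UGDH, BCAN, HAPLN1, HAPLN2, HAPLN4 and the ITIH genes fall outside this rule and were named after their values were seen, overlapping genes were named by position, and marker genes as examples. Some genes of the lists are counted but not reported here by name. The 8 genes, the lists and the rule were chosen with earlier results of these data known.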

Additional observations from a re-analysis of the deposited data

How the results depend on the processing

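Under 14 alternatives to the reported fit, the log2 fold changes of CD44 (1.56 to 1.67), HMMR (0.39 to 0.52), HAS2 (0.81 to 2.03), HAS3 (1.91 to 2.52), HYAL1 (-0.30 to -0.18) and CEMIP (0.71 to 1.29) kept their direction and their side of an adjusted p of 0.05, and no result of any of the 8 genes changed direction. HYAL2 passed as lower with library totals (-0.26, adjusted p = 0.028), no filter (-0.25, 0.0413), limma on log2(FPKM + 1) (-0.21, 0.0267) and on log2(FPKM + 0.1) (-0.26, 0.0256), so that 2 of the 8 genes fell under each of these, and it ranged from -0.28 to -0.15 with 1 library left out, where 1 to 2 genes fell. HYAL3 was no longer called with library totals (0.33, adjusted p = 0.0746), the DESeq2 Wald test (0.37, 0.0808), no filter (0.34, 0.0674) and limma on both scales (0.26, 0.0607, and 0.32, 0.0597), and ranged from 0.23 to 0.50 with 1 library left out (adjusted p up to 0.265). On log2(FPKM + 1), which shrinks the change of low genes, 2 of the 8 genes were DEGs higher, CD44 and HAS3. HAS2 (0.81) and CEMIP (0.71) were no longer DEGs on that scale. There, 5 genes of the pathway lists (0 lower) and 430 of all genes (206 lower) were DEGs higher. Requiring 1 CPM in every library left 756 DEGs higher over all genes and, in the pathway lists, 6 higher and 0 lower, by testing fewer genes. For the rest the cause was not tested. Same-numbered libraries did not deviate together (correlations 0.02, 0.00 and -0.03), so the numbers do not pair them. A replicate block gave 1205 DEGs higher and 536 lower, of which 1202 and 531 were shared with the fit without it, and 4368 genes that rose and 4390 that fell, and it changed no call among the 8 genes. The median log2 fold change of all genes stayed between -0.05 and 0.07 under every scaling and filter. Genes with few reads, such as HAS2, PTX3, AMBP and STAB1, have wide errors.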
